A study of Mus musculus with 6 samples.

Results

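Gzmd, Gzme, Tnfsf11, Alpl, Rgs2 and Kcne4 are 6 of the 52636 genes in the count table. They were chosen by their measured values in these data, as markers of a sub-population inside the cell type that the study named Fibroblast 2, so their high level there is a description and not a finding, and only the comparison between genotypes was tested. The values came from single-cell RNA sequencing of cells cultured from the RPE, the pigmented epithelium that serves the photoreceptors, and from the choroid, the vascular coat behind it, of male C57BL/6J mice aged 12 to 16 months. Of the 6 samples, 3 were Dram2 wt/wt (wild type) and 3 were Dram2 ko/ko, mice that lack exon 4 of Dram2 in all cells after CRISPR/Cas9 editing of zygotes. The labels do not say whether a sample is 1 mouse or several, so p-values measure the spread between these samples. All samples shared the strain, the sex and the culture step, which means that every level below is that of cells grown in a dish.

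Granzymes are serine proteases that cytotoxic lymphocytes store in granules and deliver into target cells with the pore-forming protein perforin. Gzmd and Gzme belong to a rodent group of granzymes in the gene cluster that also holds Gzmb. Tnfsf11 encodes RANKL, the cytokine on osteoblasts and stromal cells that drives osteoclast formation through its receptor RANK, and Alpl encodes tissue-nonspecific alkaline phosphatase, which breaks down pyrophosphate and so permits mineral to form. Rgs2 encodes a regulator of G-protein signalling that shortens signals through Gq-coupled receptors, and Kcne4 encodes a single-pass subunit that reduces the current of several voltage-gated potassium channels.

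The gene positions, from the GENCODE M21 annotation of GRCm38, place both granzymes in the granzyme cluster of chromosome 14. Gzme (ENSMUSG00000022156) lies at chr14:56117626-56120625 and Gzmd (ENSMUSG00000059256) at chr14:56129556-56132608, both on the minus strand with 8930 bases between them. Tnfsf11 (ENSMUSG00000022015) lies on the same chromosome at chr14:78277445-78308043 on the minus strand. Alpl (ENSMUSG00000028766) lies at chr4:137741733-137796384, Rgs2 (ENSMUSG00000026360) at chr1:143999338-144004161 (both minus strand) and Kcne4 (ENSMUSG00000047330) at chr1:78816758-78820028 on the plus strand.

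The promoters of Gzmd and Gzme are shown because these genes were often detected in the same cells and are near copies of each other. Each stretch runs from 250 bases before to 50 bases after the RefSeq start site on GRCm38.p6 and is written 5′ to 3′ on the gene's minus strand, at chr14:56132544-56132843 for Gzmd and chr14:56120576-56120875 for Gzme. Capitals mark the 2 matches in each to TGTGGT, the core letters bound by RUNX factors, on either strand (ACCACA is the same motif on the opposite strand).
Gzmd: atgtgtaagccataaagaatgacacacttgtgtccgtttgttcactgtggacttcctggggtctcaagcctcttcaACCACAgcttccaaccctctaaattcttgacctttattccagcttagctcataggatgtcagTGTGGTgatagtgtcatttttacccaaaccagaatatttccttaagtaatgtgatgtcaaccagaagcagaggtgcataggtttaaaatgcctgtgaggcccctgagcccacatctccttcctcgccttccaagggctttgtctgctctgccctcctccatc
Gzme: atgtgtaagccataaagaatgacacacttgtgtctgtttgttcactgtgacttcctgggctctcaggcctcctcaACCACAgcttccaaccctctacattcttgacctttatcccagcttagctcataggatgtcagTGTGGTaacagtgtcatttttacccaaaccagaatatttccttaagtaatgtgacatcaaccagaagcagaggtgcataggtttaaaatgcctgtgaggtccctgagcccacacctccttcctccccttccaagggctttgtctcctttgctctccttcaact
A global alignment of these promoters held 281 identical bases in 301 columns, 93.4%, whereas every other pair of member promoters stood between 45.7% and 52.1%. In Gzmd the motif began at positions -112 (the gene's strand, as printed) and -174 (opposite strand) from the start site, and in Gzme at -113 and -175. The motif stood on either strand in 16.8% of all 32851 RefSeq promoters of this length, so its presence alone marks neither gene. The other motifs searched on both strands were the TATA box TATAAA, the AP-1 site TGACTCA, the cyclic AMP response element TGACGTCA and the E-box CACGTG, found in 13.6%, 5.20%, 1.79% and 7.15% of promoters. Tnfsf11 had a TATAAA on the opposite strand at -32, Kcne4 a CACGTG at -54, and 1 of the 2 Alpl promoters a TATAAA on the opposite strand at -192, while the Rgs2 promoter held none of these letters.

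The 3′ ends, from which the libraries were read, also share sequence in part. When the last 400 bases of the transcripts were cut into overlapping words of 31 bases, 30% of the Gzmd words also occurred in another gene (20% in Gzme), and 35.9% of the Gzme words did (24.3% in Gzmd). For Tnfsf11, Alpl, Rgs2 and Kcne4 the share was 0%. Reads that lie wholly within a shared stretch cannot be assigned to 1 gene, so the split between Gzmd and Gzme may be uncertain. How many reads this affects was not measured.

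In all, the table held 25428 cells and 96808998 to 122746184 molecules (unique molecular identifiers, UMIs) per sample. Dram2 stood at 33.4, 39.6 and 38.1 CPM (UMIs of the gene scaled to a total of 1000000 UMIs) in the whole wt/wt samples and at 30.7, 28.3 and 30.1 CPM in the ko/ko samples, but 3′ reads come from outside exon 4 and do not check the deletion. The third ko/ko sample was alone in its labelled batch, so results are given without it too. The cell names carry no barcode letters, so barcodes shared between libraries were not counted.

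Fibroblast 2 comprised 3019 cells, of which 2964 lay in fibroblast sub-cluster 3 of the deposited clustering. That sub-cluster also held 811 cells of the type Fibroblast. All 8 fibroblast markers reached 10 CPM, and 4 were higher than in Fibroblast: in pooled Fibroblast 2 cells decorin (Dcn) stood at 2422 CPM against 573 CPM in Fibroblast, lumican (Lum) at 268 against 82.6 Pdgfra at 114 against 53.4 and Pdgfrb at 89.1 against 86.1, whereas the collagen genes Col1a1 (178 against 672), Col1a2 (74.2 against 645) and Col3a1 (135 against 239) were lower. Of 10 pericyte and smooth muscle genes, 7 reached 10 CPM in a fibroblast type and 2 of these were higher in Fibroblast 2, Kcnj8 (22.6 against 0.733 CPM) and Des (231 against 116 CPM). The other 5 were lower: Acta2, the smooth muscle actin gene (5235 against 11049 CPM), Cnn1 (61.5 against 513 CPM), Myh11 (6.47 against 45.9 CPM), Rgs5 (11.6 against 67.0 CPM) and Cspg4 (21.7 against 37.8 CPM). The 5 proliferation genes were each lower than in Fibroblast, from Mki67 (0.478 against 1.01 CPM) to Cdk1 (3.87 against 18.5 CPM). One neighbouring label went against several of its markers: cells named Pericyte carried Sox10 (176 CPM), a neural crest and glial gene. They had 0 UMIs of Kcnj8, Higd1b and Ndufa4l2, whereas Cspg4, of the same list, was highest there among the cell types, at 207 CPM. The name is used here only as a label.

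Gzmd had its highest level in Fibroblast 2 in all 6 samples. Its level there was 109, 134 and 378 CPM in the wt/wt samples and 117, 83.0 and 143 CPM in the ko/ko samples. In Fibroblast it was 4.42 ± 1.89 CPM (SD, n = 6) and in Fibroblast proliferating 5.26 ± 2.53 CPM, which overlap with each other and not with Fibroblast 2. Pooled over cells this was 30.5-fold more in Fibroblast 2 than in Fibroblast (27.7-fold to 46.8-fold within a sample). The remaining types had means of 0.110 to 0.634 CPM, whose ranges overlapped.

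Gzme had higher counts than Gzmd and the same leading cell type. Its level in Fibroblast 2 was 145, 308 and 553 CPM in the wt/wt samples and 189, 167 and 209 CPM in the ko/ko samples. It stood at 19.0 ± 4.58 CPM in Fibroblast proliferating and 17.3 ± 4.49 CPM in Fibroblast (SD, n = 6 each), with overlapping ranges, and the pooled fold of Fibroblast 2 over Fibroblast was 13.1. The pair also differed in proportion: there were 0.617 Gzmd UMIs for each Gzme UMI in Fibroblast 2 (0.435 to 0.751 over samples) against 0.264 in Fibroblast (0.172 to 0.376), ranges that did not overlap. With the shared 3′ sequence this ratio describes assigned reads only.

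Tnfsf11 was low outside Fibroblast 2. Its level in Fibroblast 2 was 39.2, 66.9 and 84.5 CPM in the wt/wt samples and 27.9, 35.3 and 64.0 CPM in the ko/ko samples. The next types were Fibroblast proliferating at 2.18 ± 0.748 CPM and Fibroblast at 1.82 ± 0.305 CPM (SD, n = 6), which overlapped, and the pooled fold over Fibroblast was 25.6. Of all Tnfsf11 UMIs in the table, 74.2% were in Fibroblast 2 cells.

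Alpl had the largest pooled fold over Fibroblast of the 6, though not over the next highest type. Its level in Fibroblast 2 was 41.4, 111 and 119 CPM in the wt/wt samples and 60.4, 35.8 and 107 CPM in the ko/ko samples. Fibroblast held 1.65 ± 0.437 CPM (SD, n = 6), so that the pooled fold was 42.0 (24.5 to 87.4 within a sample). The pooled level in Fibroblast, 1.62 CPM, was near those in RPE and Endothelial cells (1.11 CPM each), so the fold rests on a low denominator. Fibroblast 2 cells held 81.3% of all Alpl UMIs. The second highest mean was in Myeloid cells, at 6.69 ± 4.27 CPM in the 4 samples with 10 or more such cells, 9.37-fold below Fibroblast 2 when pooled, and its range overlapped with that of Fibroblast proliferating at 2.12 ± 0.824 CPM.

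Rgs2 was also high outside the fibroblasts. Its level in Fibroblast 2 was 137, 255 and 168 CPM in the wt/wt samples and 111, 108 and 161 CPM in the ko/ko samples. Endothelial cells reached 101 ± 33.7 CPM (SD, n = 6; 57.9 to 158 CPM), which overlaps with the range in Fibroblast 2, and Myeloid cells 31.1 ± 17.4 CPM (n = 4). Fibroblast, at 5.99 ± 0.398 CPM, was 24.0-fold below Fibroblast 2 when pooled.

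Kcne4 completed the set with 57.0, 106 and 101 CPM in Fibroblast 2 of the wt/wt samples and 56.7, 53.0 and 77.1 CPM in the ko/ko samples. By the mean over samples Fibroblast followed at 3.80 ± 0.657 CPM (SD, n = 6), 18.3-fold lower when pooled. Its range overlapped with those of Myeloid and Fibroblast proliferating cells. When pooled over cells, Myeloid was the next type, at 6.37 CPM (14 UMIs), 10.7-fold below Fibroblast 2. As a background for these folds, of 9066 genes at 10 CPM or more in Fibroblast 2 or Fibroblast, 16 genes (0.176%) had a pooled fold of 13 or more, and the median fold was 1.03. The 6 members are within that small group because they were chosen so.

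**Figure D1:**
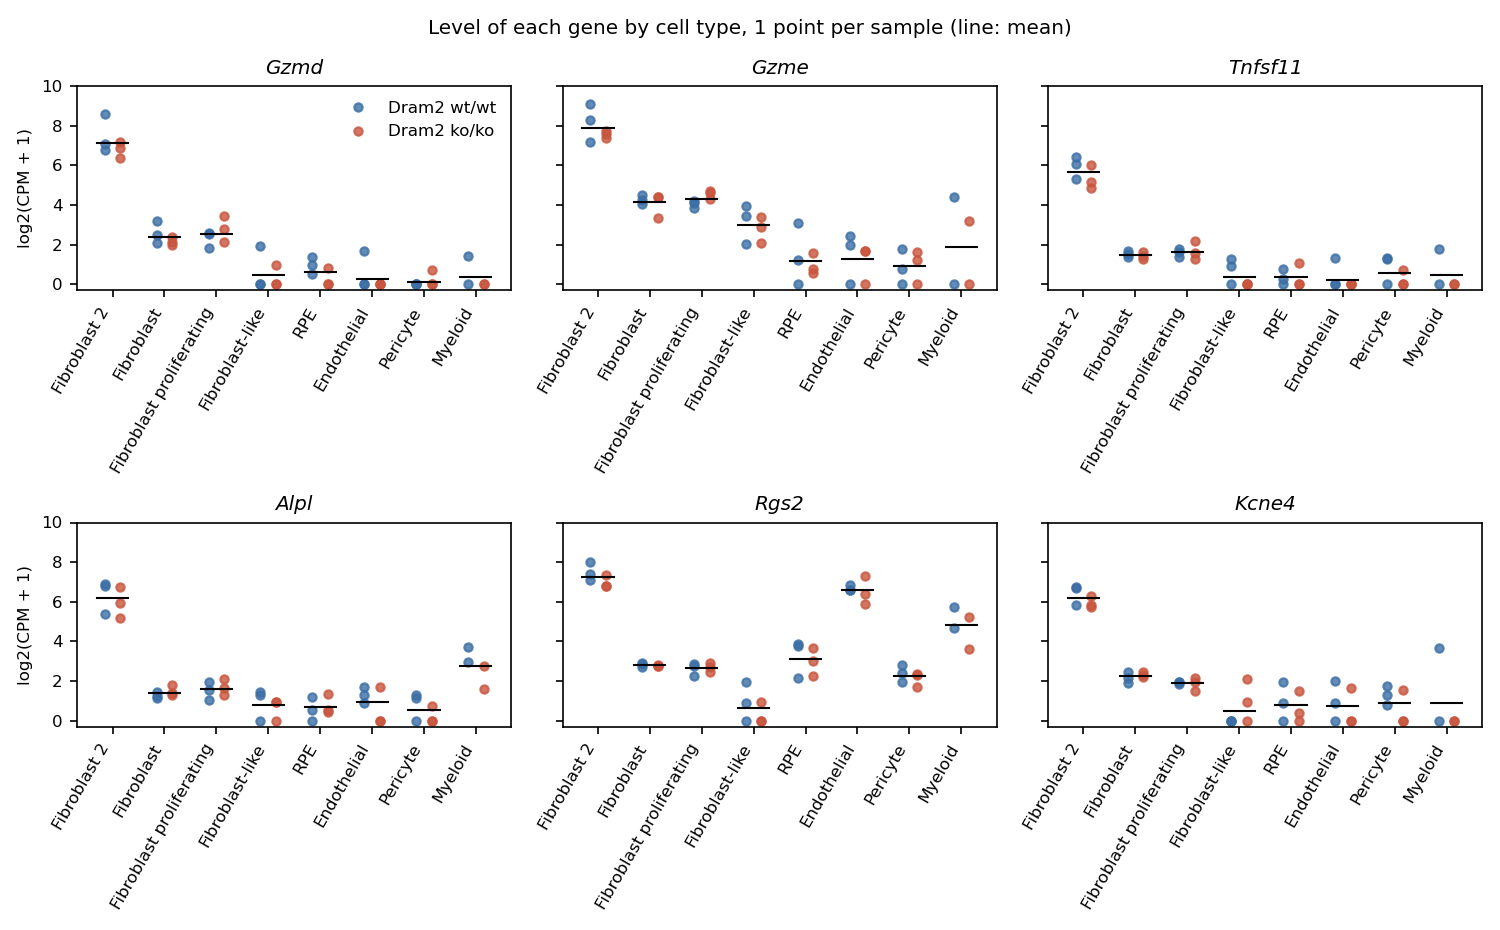
Level of each gene as log2(CPM + 1) on the vertical axis in the 8 cell types on the horizontal axis, with 1 point per sample with 10 or more cells of the type (blue, Dram2 wt/wt; red, Dram2 ko/ko) and a line at the mean of the plotted values. Fibroblast 2 stands above every other type for 5 genes, whereas for Rgs2 the Endothelial samples (57.9 to 158 CPM) overlap with it.

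Sub-cluster 3 was not uniform for these genes. Its 811 Fibroblast cells held Gzmd at 33.5 CPM and Gzme at 81.8 CPM when pooled, between the Fibroblast 2 cells of the same sub-cluster (144 and 232 CPM) and the Fibroblast cells outside it (2.64 and 13.04 CPM). Over samples these cells ranged from 10.2 to 145 CPM for Gzmd and from 25.6 to 211 CPM for Gzme, with the third wt/wt sample highest for both, and without that sample the pooled levels were 17.2 and 62.9 CPM. Alpl was likewise at 11.0 CPM in these cells, against 69.6 CPM in Fibroblast 2 and 0.982 CPM in the Fibroblast cells outside. Rgs2 differed from the granzymes here, since it stood at 9.06 CPM, near the 5.76 CPM outside and far from 146 CPM. Sub-cluster 7, with 214 cells, held Alpl at 10.3 CPM and Kcne4 at 11.9 CPM but Gzmd at 0.647 CPM and Gzme at 1.51 CPM. Alpl there ranged from 0 to 39.9 CPM over samples, and without the third ko/ko sample the pooled levels were 6.15 CPM for Alpl and 0.492 CPM for Gzme. Gzme in sub-clusters 2 and 4 was 18.0 and 21.3 CPM.

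To compare shares of cells at equal depth, each cell was thinned to 8000 UMIs, which kept 2575 Fibroblast 2 cells and left out 444. A UMI was then found in 12.4% of Fibroblast 2 cells for Gzmd, 20.4% for Gzme, 13.7% for Tnfsf11, 27.5% for Alpl, 30.4% for Rgs2 and 27.1% for Kcne4. Without thinning the shares were 13.8%, 24.0%, 18.0%, 40.7%, 38.1% and 39.5%. RPE cells, an epithelial type, were taken as a comparison for signal from free RNA, although their own expression of the members was not tested. The thinned shares there were 0.525%, 1.93%, 0.525%, 0.963%, 4.47% and 1.23%. Median depths before thinning were 22906 UMIs in RPE and 18394 in Fibroblast 2. Fibroblast cells stood at 1.63%, 5.89%, 1.11%, 1.21%, 3.29% and 2.33%, below RPE for Rgs2. RPE is no floor for Rgs2, whose pooled level was 11.0 CPM there against 0.759 CPM in Fibroblast-like and 4.12 CPM in Pericyte cells. Endothelial and Myeloid cells had Rgs2 shares of 32.7% and 30.5%, at or above that of Fibroblast 2. Of the thinned Fibroblast 2 cells 44.2% had no UMI of any of the 6.

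The UMIs of the granzymes were concentrated in few cells. The 30 Fibroblast 2 cells (1%) with the most Gzmd UMIs held 50.9% of all Gzmd UMIs of the type, and 1 cell of the first wt/wt sample held 574. Within samples the top 1% of cells held 58.9%, 36.2% and 23.2% of Gzmd UMIs in wt/wt and 57.2%, 53.7% and 44.4% in ko/ko, lowest in the third wt/wt sample, where the level was highest. For Gzme the top 30 cells held 37.6% and for Tnfsf11 34.0%. Rgs2, Alpl and Kcne4 were spread more evenly, with 19.5%, 16.6% and 16.5%. Without thinning, 86.2% of Fibroblast 2 cells had no UMI of Gzmd and 59.3% none of Alpl.

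**Figure D2:**
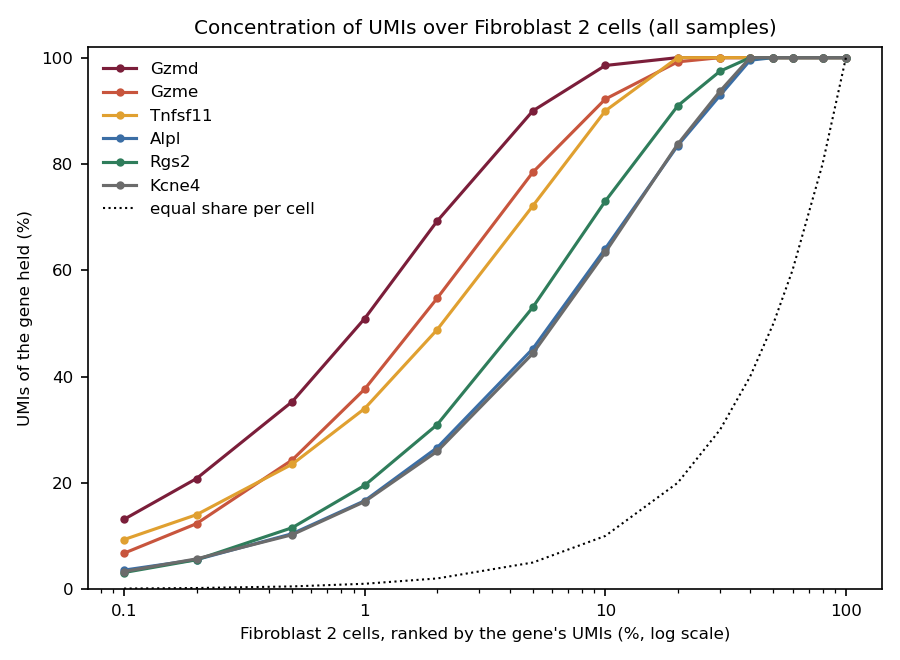
Percentage of a gene's UMIs in Fibroblast 2 (vertical axis) held by the percentage of cells with the most UMIs of that gene (horizontal axis, log scale), all 6 samples together and without thinning. At 1% of cells the curves of Gzmd, Gzme and Tnfsf11 stand at 50.9%, 37.6% and 34.0%, above those of Rgs2, Alpl and Kcne4 at 19.5%, 16.6% and 16.5%.

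Each member was detected more often in cells that had another member, although 20.5% of the thinned Fibroblast 2 cells had only 1 of them. Of the 320 thinned Fibroblast 2 cells with Gzmd, 85.9% also had Gzme, against 11.1% of the cells without Gzmd. Tnfsf11 was found in 40.9% of Gzmd-positive and 9.89% of Gzmd-negative cells, and Rgs2 in 65.3% and 25.4%. Outside the granzymes, Kcne4 was found in 51.2% of cells with Rgs2 and 16.6% of cells without it, and Alpl in 55.9% of cells with Tnfsf11 and 23.0% of cells without it. For every pair of members the share was higher with the other gene than without it in 6 of 6 samples. All 6 members occurred together in 38 cells, 1.48% of those thinned (0.362% to 4.61% over samples). These are descriptions, since the genes were chosen together as markers of 1 sub-population and the clustering that defined the cells used the same counts.

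**Figure D3:**
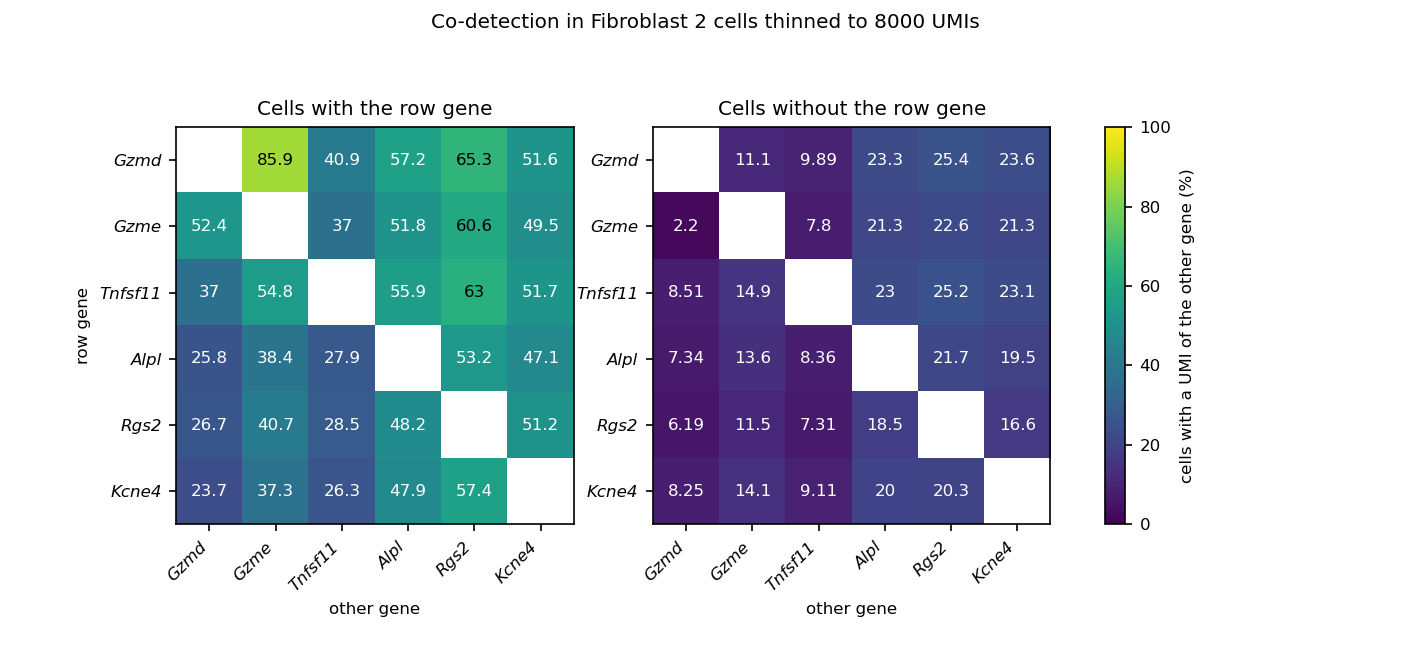
Percentage of thinned Fibroblast 2 cells with a UMI of the gene in the column, among cells with (left) or without (right) a UMI of the gene in the row, all samples together. Every value on the left exceeds its counterpart on the right, from 85.9% against 11.1% for Gzme by Gzmd to 23.7% against 8.25% for Gzmd by Kcne4.

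Cells with 10 or more UMIs of Gzmd and Gzme together, a limit set on these counts, numbered 329 in Fibroblast 2 (10.9%), 169 in Fibroblast (1.34%), 90 in Fibroblast proliferating (1.39%) and 1 in RPE. The granzyme-rich Fibroblast 2 cells made up 9.26%, 15.8% and 20.9% of the type in the wt/wt samples and 8.56%, 6.85% and 12.6% in the ko/ko samples. The perforin gene Prf1 and the leukocyte gene Ptprc (CD45) had 0 UMIs, which allows up to 0.343 CPM, while Dcn stood at 4135 CPM against 2165 CPM in the other Fibroblast 2 cells. The other members were higher as well, with Tnfsf11 at 177 against 27.1 CPM, Rgs2 at 431 against 100.1 CPM, Alpl at 188 against 50.2 CPM and Kcne4 at 175 against 52.3 CPM. The median depth of the 329 cells was 23516 UMIs and that of the others 17716, and the part of depth in these values was not tested.

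Among all Fibroblast 2 cells, of 12 genes that mark T and natural killer cells 7 had 0 UMIs (Cd3e, Cd3g, Cd8a, Nkg7, Prf1, Ncr1 and Klrb1c), which allows up to 0.0448 CPM each, and the summed level of the list was 0.148 to 0.555 CPM in wt/wt and 0.468 to 0.802 CPM in ko/ko samples. Of 7 mast cell genes, 3 had 0 UMIs (Cpa3, Tpsb2 and Fcer1a), while Kit, Cma1, Mcpt4 and Hdc had some. The summed level of the 7 was 0.624 to 0.890 CPM in wt/wt and 0.2004 to 0.680 CPM in ko/ko. The other granzymes were nearly absent. Of the 8 further granzyme genes, 7 were under 1 CPM in every cell type and Gzmm was at 0.791 CPM in Fibroblast 2. Of the genes for granzyme storage, activation and inhibition, 6 of 7 reached 10 CPM in a fibroblast type: the granule proteoglycan gene Srgn was at 32.2 CPM in Fibroblast 2 against 17.2 CPM in Fibroblast, the activating protease Ctsc at 30.9 against 39.2 CPM, and the intracellular serpins Serpinb6a (774 against 1061 CPM), Serpinb6b (14.3 against 98.5 CPM), Serpinb9 (11.2 against 17.7 CPM) and Serpinb9b (17.9 against 68.7 CPM) were each lower in Fibroblast 2.

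The partners of RANKL did not share the pattern of Tnfsf11. Tnfrsf11b, the gene of the decoy receptor osteoprotegerin that binds RANKL, was at 79.2 CPM in Fibroblast 2 against 236 CPM in Fibroblast, and Csf1, the other cytokine that osteoclast precursors need, at 912 against 984 CPM. Tnfrsf11a, the gene of RANK, was at 0.119 CPM in Fibroblast 2 and highest in Myeloid cells at 12.3 CPM.

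Few other bone genes were higher in Fibroblast 2 as Alpl was. Of 13 further genes of mineralisation, 5 reached 10 CPM in a fibroblast type and 1 was higher in Fibroblast 2 than in Fibroblast: Spp1, the gene of osteopontin, at 14413 against 1711 CPM. Mgp, which inhibits calcification, was at 678 against 2891 CPM, the pyrophosphate transporter gene Ank at 45.9 against 259 CPM, and the phosphate transporters Slc20a1 (50.5 against 61.4 CPM) and Slc20a2 (27.8 against 41.9 CPM) were closer. Of 17 osteoblast genes, 6 reached 10 CPM and 1, Bmp4 (12.3 against 8.49 CPM), was higher in Fibroblast 2. Runx2, the factor that starts osteoblast differentiation, stood at 13.6 against 24.7 CPM, Sparc at 2259 against 3487 CPM and Msx2 at 1.37 against 10.8 CPM. The osteoblast-defining genes Bglap (osteocalcin), Ibsp and Dmp1 had 0 UMIs in Fibroblast 2, which allows up to 0.0448 CPM each.

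The families of the remaining members were likewise uneven. Of 9 further R4 regulators of G-protein signalling, 2 reached 10 CPM in a fibroblast type: Rgs16 was at 320 CPM in Fibroblast 2 against 160.1 CPM in Fibroblast, and Rgs5 at 11.6 against 67.0 CPM. Of 15 further KCNE subunits and potassium channels that they bind, 0 reached 10 CPM in a fibroblast type, and Kcne3 was highest in Endothelial cells at 29.5 CPM.

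The genes whose pattern was most like each member's are given as descriptions. Within samples, over 2575 thinned cells of the same type, the mean Pearson r of log counts was 0.77 for Gzmd and Gzme, and the next gene for both was Mcpt8, at 0.67 with Gzmd and 0.70 with Gzme. Mcpt8 encodes a protease known from basophils and lies in the same cluster, 32352 bases from Gzme at chr14:56082166-56085273, and shares 0% of its 3′ words with another gene. Its level in Fibroblast 2 was 54.2, 84.1 and 172 CPM in wt/wt and 40.5, 33.5 and 59.9 CPM in ko/ko samples, against 14.6 CPM in pooled Fibroblast cells. After it came Sod3, the extracellular superoxide dismutase, Igfbp5, an IGF-binding protein, and the neuronal protease gene Prss12, at 0.43, 0.36 and 0.35 with Gzmd and at 0.46, 0.41 and 0.39 with Gzme.

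Igfbp5 led the list for Tnfsf11 (0.37), Alpl (0.52), Rgs2 (0.51) and Kcne4 (0.40). For Tnfsf11 the next were Sod3, Rgs2, Spp1 and Serpine2 (0.37, 0.32, 0.32 and 0.31), and for Alpl they were Sod3, Serpine2, Dgat1 and Acsl4 (0.49, 0.40, 0.39 and 0.39). Rgs2 was followed by Nr4a2 (0.49), Sod3 (0.49), Crem (0.48) and Slc25a25 (0.48), and Kcne4 by Rgs2 (0.40), Nr4a2 (0.39), Crem (0.36) and Nfil3 (0.36). Nr4a2 and Crem are known as genes that cyclic AMP induces. Counts per cell are sparse and these cells share libraries, so values of this size rank genes and show no more.

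Over the 46 sums per sample and cell type, which share samples and the step between Fibroblast 2 and the rest, Gzmd was most like Tnfsf11 (r = 0.94 on log2(CPM + 1)), followed by Kcnj8 (0.93), Gzme (0.92), Ccl11 (0.92) and Sod3 (0.90). Gzme was closest to Gzmd (0.92), Ccl11 (0.89), Mcpt8 (0.89), Il11 (0.88) and Il6 (0.88). Ccl11 (eotaxin), Il11 and Il6 encode secreted signals that fibroblasts are known to make, and Kcnj8 encodes a pore subunit of ATP-sensitive potassium channels. Tnfsf11 was closest to Gzmd (0.94), Kcnj8 (0.93), Alpl (0.90), Sod3 (0.90) and Kcne4 (0.89), and Alpl to Tnfsf11 (0.90), Sod3 (0.90), Cygb (0.87), Ptger2 (0.87) and Kcnj8 (0.87). Kcne4 was closest to Trip6, Hsd11b1, A730049H05Rik, Gzmd and Kcnj8 (0.92, 0.92, 0.90, 0.90 and 0.90), whereas Rgs2 had a list of its own, Ets2, Arrdc3, Tnip1, Pde4b and Gpr146 (0.87, 0.85, 0.85, 0.85 and 0.85), of which the last 3 were highest in Endothelial cells.

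Over the 49 sums per sample and sub-cluster, Shisa2 stood among the 5 closest genes of Gzmd (0.84), Gzme (0.76), Tnfsf11 (0.87) and Rgs2 (0.91). Igfbp5 was closest to Alpl (0.89) and Sod3 to Kcne4 (0.90). The further names were Fmo2 (0.78) and Crym (0.77) for Gzmd, Il11 for Gzme (0.79) and Tnfsf11 (0.85), Mcpt8 for Gzme (0.77), Hsd11b1 (0.83) for Alpl, Cd200 for Alpl (0.81) and Rgs2 (0.85), and Phlda1 (0.83) for Kcne4. The remaining places were taken by other members, by Sod3 and by Igfbp5.

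The question that the design poses for these genes was whether the loss of Dram2 altered them. In Fibroblast 2 each member had a lower mean in ko/ko than in wt/wt, but the groups overlapped for all 6 and no difference passed the test. Gzmd averaged 207 ± 149 CPM in wt/wt and 114 ± 30.04 CPM in ko/ko (SD, n = 3 each), and Gzme 335 ± 206 and 188 ± 20.9 CPM. Both wt/wt means rested on the third sample, at 378 and 553 CPM. On the log2 scale, ko/ko minus wt/wt was -0.65 (SE 0.393, adjusted p = 0.887 by voom-limma) for Gzmd and -0.63 (SE 0.368, adjusted p = 0.887) for Gzme, and without the third wt/wt sample it was -0.091 and -0.15.

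Tnfsf11 averaged 63.5 ± 22.8 CPM in wt/wt and 42.4 ± 19.1 CPM in ko/ko, which on the log2 scale was -0.59 (SE 0.318, adjusted p = 0.887, voom-limma). Alpl, at 90.4 ± 42.7 and 67.7 ± 36.1 CPM, had the widest overlap, with -0.39 (SE 0.430, adjusted p = 0.900), and without the second ko/ko sample it was 0.0080. Rgs2, at 187 ± 61.3 and 127 ± 29.7 CPM, had -0.52 (SE 0.212, adjusted p = 0.731) and Kcne4, at 88.1 ± 27.1 and 62.27 ± 12.998 CPM, -0.45 (SE 0.223, adjusted p = 0.887). For each of the 6 genes the second and the third wt/wt samples and the third ko/ko sample were the 3 high ones. The order over all samples thus did not follow genotype. Without the third ko/ko sample, alone in its batch, each wt/wt sample stood above both ko/ko samples for Tnfsf11, Rgs2 and Kcne4. For Gzmd, Gzme and Alpl the groups still overlapped. The share of all genes for which such an order held was not counted, so the order describes these samples only. For Kcne4 the lowest wt/wt value and the highest remaining ko/ko value were almost equal. Within the first batch, with 3 wt/wt and 2 ko/ko samples, the log2 fold changes were -0.81 for Gzmd, -0.70 for Gzme, -0.89 for Tnfsf11, -0.75 for Alpl, -0.69 for Rgs2 and -0.59 for Kcne4, with adjusted p from 0.246 to 0.633.

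**Figure D4:**
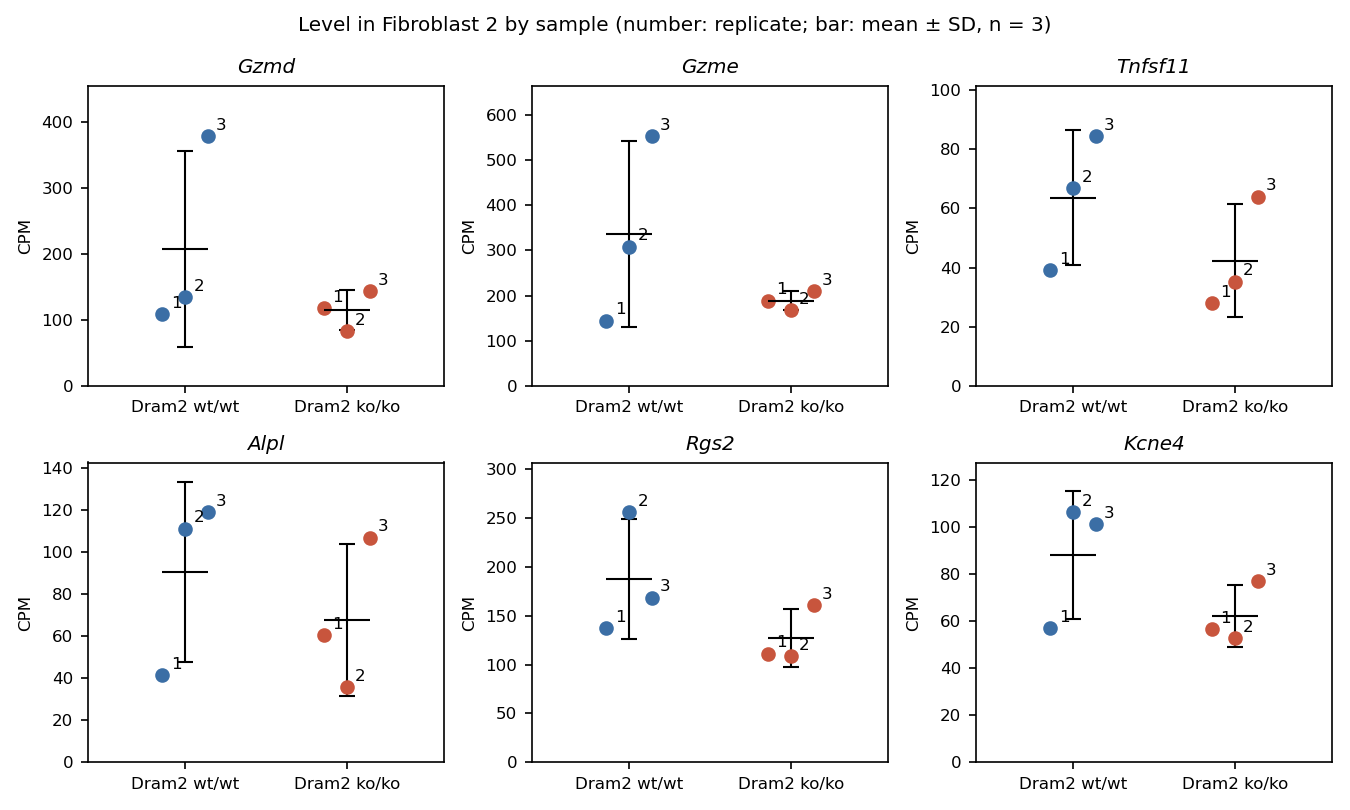
Level in Fibroblast 2 (CPM, vertical axis from 0) in each sample, marked with its replicate number, with the mean ± SD of the 3 samples per genotype. For Gzmd and Gzme 1 wt/wt sample stands apart at 378 and 553 CPM, and for all 6 genes the genotypes overlap.

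Thus 0 of 6 members were called in Fibroblast 2 at an adjusted p under 0.05, where 33 of 14882 genes tested (0.222%, all lower in ko/ko) were called, 0 of 6 also by edgeR and by DESeq2, which called 0.0739% and 1.13% of genes. At an unadjusted p under 0.05 there was 1 member (Rgs2) by voom-limma and 2 members by either other tool, beside 6.2% of all genes by voom-limma, 6.09% by edgeR and 4.83% by DESeq2. The median log2 fold change of the 6 was -0.56 and that of all genes tested -0.010, which is a description since the members share cells. The 3 samples with lower levels (the first wt/wt and the first and second ko/ko) were those with the larger share of Fibroblast 2, which made up 14.1%, 7.41% and 7.96% of cells in wt/wt and 17.5%, 15.1% and 10.6% in ko/ko. Its median depth was 25420, 18209 and 20080 UMIs in wt/wt and 37390, 14490 and 19820 UMIs in ko/ko, and its median mitochondrial share 1.55%, 2.41% and 1.97% against 1.68%, 1.57% and 2.01%. The part of these in the differences was not tested. Of the marker lists of other cell types, each had a summed level in Fibroblast 2 that overlapped between the genotypes. For 8 fibroblast genes they were 3541 to 4423 CPM in wt/wt and 3422 to 5201 CPM in ko/ko. The summed level of 5 endothelial genes, mostly Emcn, which Fibroblast also had at 403 CPM, was 292 to 345 CPM in wt/wt and 312 to 404 CPM in ko/ko, that of 7 myeloid and osteoclast genes, mostly Ctsk, which Fibroblast also had at 81.0 CPM, 67.9 to 88.1 and 69.3 to 72.3 CPM, that of 10 pericyte and smooth muscle genes 4409 to 5638 and 4946 to 6672 CPM, and that of 5 proliferation genes 8.48 to 25.4 and 6.89 to 11.9 CPM. For 8 RPE genes it was 2.97 to 6.23 CPM and 1.34 to 3.06 CPM. Sums led by 1 gene hide the low genes: of the 3 endothelial genes tested, Kdr and Cdh5 had log2 fold changes of -0.84 and -0.81 and Emcn 0.18, and the 2 RPE genes tested, Krt18 and Best1, had -1.59 and -0.42. The 3 myeloid genes tested, Lyz2, Cd68 and Ctsk, had -0.37, -0.25 and -0.11, and the 3 proliferation genes tested, Top2a, Cdk1 and Birc5, had -0.68, -0.49 and -0.10. Of the pericyte and smooth muscle genes tested, Rgs5 and Ndufa4l2 had -0.74 and -0.59, and all others were positive, from 0.053 (Des) to 0.39 (Kcnj8). None of these marker genes was called (adjusted p from 0.410 to 0.974 by voom-limma). The part of such cells in the members' differences was not tested.

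The share of cells with a UMI was compared at equal depth. Gzme was found in 17.3%, 29.5% and 34.8% of thinned Fibroblast 2 cells in the wt/wt samples and in 15.9%, 14.98% and 22.9% in the ko/ko samples, means of 27.2% ± 8.95 and 17.9% ± 4.36 (SD, n = 3) that overlap. The exact two-sided permutation test gave an unadjusted p of 0.2 for Gzmd, Gzme and Tnfsf11, 0.4 for Rgs2 and 0.5 for Alpl and Kcne4, where 3 samples against 3 cannot give less than 0.1. The difference of ko/ko minus wt/wt was -7.12 percentage points for Gzmd, -9.26 for Gzme, -5.42 for Tnfsf11, -7.76 for Alpl, -5.83 for Rgs2 and -5.28 for Kcne4. Cells with no member made up 47.0%, 29.9% and 33.3% in wt/wt and 43.6%, 55.6% and 34.6% in ko/ko.

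None of the related genes was called between the genotypes in Fibroblast 2 either, where 0.222% of all genes tested were called. By voom-limma, 0 were called of the 3 granzymes tested, 6 genes of granzyme delivery and inhibition and 7 of the RANKL system. Nor were any of 8 genes of mineralisation, 12 of osteoblasts, 4 R4 regulators and 4 KCNE genes and partners. All had passed the count filter, and members are counted in the lists they belong to. In that order the median log2 fold changes were -0.65, -0.18, -0.037, 0.030, -0.044, -0.27 and -0.17, beside -0.010 for all genes. The granzyme median is the value of Gzmd itself. Besides Gzmd and Gzme, the only granzyme tested was Gzmm (-0.85), at 1.16 CPM in wt/wt and 0.559 CPM in ko/ko.

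In the other cells the members were tested wherever their counts passed the filter. In Fibroblast 0 of 6 were called by voom-limma, edgeR or DESeq2, and 0 of 6 at an unadjusted p under 0.05, where voom-limma called 0.00503% of 19886 genes, edgeR 0.00503% and DESeq2 1.61%, and 7.18% had an unadjusted p under 0.05. The log2 fold changes ran from -0.52 for Gzmd to 0.34 for Alpl. In Fibroblast proliferating 0 of 6 were called by voom-limma and by edgeR, which called 0.624% and 0.342% of 18113 genes, and 1 of 6 by DESeq2, which called 1.77%. By voom-limma 1 of 6 had an unadjusted p under 0.05, beside 6.79% of all genes. The gene was in each case Gzme, which here was higher in ko/ko: 17.3, 13.3 and 16.0 CPM in wt/wt against 23.7, 18.4 and 25.2 CPM in ko/ko. The groups did not overlap, which was so, with ko/ko higher, for 5.7% of the 8881 genes at 10 CPM or more in these cells, with a log2 difference of 0.52 (SE 0.145, adjusted p = 0.236) by voom-limma and 0.53 (adjusted p = 0.0377) by DESeq2, with adjusted p from 0.0377 to 0.779 over all alternatives. In sub-cluster 2, which held 6098 of the 6465 cells of this type, Gzme was at 17.9, 12.2 and 16.2 CPM in wt/wt and 24.4, 14.9 and 24.4 CPM in ko/ko, so that the groups overlapped there, and the log2 difference was 0.44 (SE 0.203, adjusted p = 0.774, voom-limma). Gzmd in Fibroblast proliferating was 4.89, 2.57 and 4.98 CPM in wt/wt and 9.82, 5.88 and 3.43 CPM in ko/ko, which differed by 0.55 on the log2 scale (SE 0.377, adjusted p = 0.972, voom-limma).

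In whole samples 0 of 6 were called by voom-limma, edgeR or DESeq2 and 0 of 6 at an unadjusted p under 0.05, with 0% of 22580 genes called (1583 or 7.01% at an unadjusted p under 0.05, 0 by edgeR and 378 or 1.67% by DESeq2) and log2 fold changes from -0.062 (Gzmd) to 0.24 (Alpl). Only Rgs2 passed the count filter in RPE, Endothelial and Myeloid cells, and it was called in none by voom-limma, edgeR or DESeq2, nor at an unadjusted p under 0.05, with log2 fold changes of -0.29, -0.13 and -0.25 by voom-limma, where 0%, 0% and 0.0296% of genes were called. In RPE, Endothelial and Myeloid cells 4.65%, 5.24% and 5.94% of genes had an unadjusted p under 0.05 by voom-limma. In RPE and Endothelial cells, where these were 573 and 350 genes, edgeR called 0 and 0 genes (0%) and DESeq2 20 and 13 (0.162% and 0.195%), and in Myeloid cells edgeR called 0.148% and DESeq2 0.119%. Myeloid cells gave 2 samples per genotype. In Fibroblast-like and Pericyte cells no member passed the filter.

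The deposited sub-clusters were tested in the same way. In sub-clusters 1, 2, 3 and 4, where all 6 members passed the filter, 0 of 6 were called by voom-limma in each, against 0.32%, 0.55%, 0.00634% and 0.722% of all genes tested, and at an unadjusted p under 0.05 there were 0, 0, 1 and 0 members, beside 7.21%, 6.83%, 5.38% and 6.54% of all genes. In sub-cluster 3 the log2 fold changes ran from -0.41 (Alpl) to -0.67 (Gzmd), with adjusted p from 0.568 to 0.955.

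The difference between the genotype effects in Fibroblast 2 and in Fibroblast was tested with an interaction term. It was negative for all 6 members, at -0.76 (SE 0.266) for Alpl, -0.65 (SE 0.242) for Kcne4, -0.47 (SE 0.279) for Gzme, -0.44 (SE 0.184) for Rgs2, -0.42 (SE 0.322) for Tnfsf11 and -0.23 (SE 0.185) for Gzmd on the log2 scale. At an unadjusted p under 0.05 there were 3 members (Alpl, Kcne4 and Rgs2), but the adjusted p was 0.933 to 0.943 by voom-limma, and 0 of 6 members and 0% of 18959 genes were called (973 genes or 5.13% at an unadjusted p under 0.05; no other tool was run). Each sample was left out in turn, and none of these fits called a member. In 1 of them, without the first wt/wt sample, the adjusted p by voom-limma was 0.0606 for Alpl, 0.0815 for Kcne4, 0.123 for Rgs2 and 0.126 for Gzme. The share of all genes at such values in that fit is not given here, so these values single out no member.

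**Figure D5:**
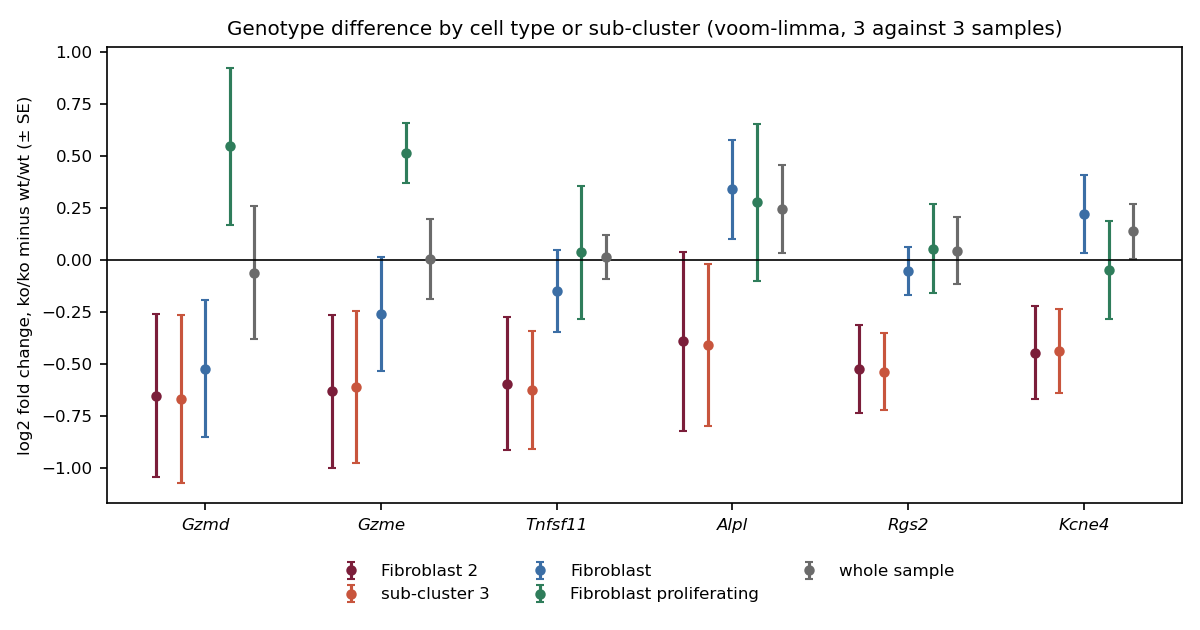
Log2 fold change of ko/ko over wt/wt (vertical axis, ± SE, voom-limma on 3 samples per genotype) for each gene in Fibroblast 2, sub-cluster 3, Fibroblast, Fibroblast proliferating and whole samples. The estimates in Fibroblast 2 lie between -0.65 and -0.39, those in Fibroblast proliferating between -0.049 and 0.55, and none passed an adjusted p of 0.05 by voom-limma.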

How the data were processed

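The authors sequenced 10x Genomics 3′ v2 libraries of cultured mouse RPE/choroid cells (3 Dram2 wt/wt and 3 Dram2 ko/ko samples) and deposited raw UMI counts per gene and cell with a table of cell types and fibroblast sub-clusters. The submitters' processing notes name Cell Ranger 3.1.0 and GRCm38; clustering was done in Seurat after integration over batches, and which cells or doublets had been removed is not given in the sources used here. No doublet caller was run. The 6 member genes and the gene lists were chosen with earlier results of these data known. Ensembl identifiers were matched to symbols for 52403 of 52636 genes.

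Counts were summed per sample and cell type or sub-cluster (10 or more cells) and tested with voom in limma 3.58.1. TMM size factors came from edgeR 4.0.16 after filterByExpr (R 4.3.3). Benjamini-Hochberg adjustment was over all genes tested, with a call at 0.05. The approach was run on simulated data, but the share of true changes that it recovers is not given here. A count of 0 calls therefore does not show equal levels. CPM are counts scaled to a total of 1000000 UMIs in a sum. Alternatives were the quasi-likelihood test of edgeR, DESeq2 1.42.0, other size factors, no count filter, batch as a covariate, the replicate number as a block, leaving out each sample, a cell filter (500 genes, 20% mitochondrial counts; it removed 1.84% of cells) and leaving out the 5% of cells with the most UMIs in each sample. The interaction fit had the sample as a factor. Shares of cells came from 1 seeded draw of 8000 UMIs per cell and were tested with exact permutation tests. Limits for a count of 0 are 3 UMIs and cover counting error only. The named genes were the members, listed genes at 10 CPM or more in a fibroblast type, and the 5 genes most like each member: over sums among genes at 20 CPM or more, over cells at a mean r of 0.2 or more. Genes named otherwise were chosen after their values were seen. Analyses used Python 3.11.15, numpy 2.4.6 and scipy 1.17.1.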

Additional observations from a re-analysis of the deposited data

How the results depend on the processing

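Of the alternatives run, none called a member in Fibroblast 2, in Fibroblast, in whole samples, in a sub-cluster or in the interaction (the last 2 with samples left out only), and the lowest adjusted p of a member in Fibroblast 2 over all alternatives was 0.138, for Gzme without the first wt/wt sample. Of 505 values recomputed under an alternative, 483 kept their direction and their side of the threshold, or, for counts, stayed within 1.5 times. The count of genes called in Fibroblast 2 moved by more than 1.5 times: 33 by voom-limma became 11 by edgeR, 168 by DESeq2, 8 with library size alone, 71 without the count filter and 0 to 121 when 1 sample was left out (0 without the first or the third wt/wt or the second ko/ko sample, 1 without the second wt/wt, 121 without the first ko/ko and 52 without the third). In Fibroblast proliferating DESeq2 called 1 member, Gzme (log2 fold change 0.53). Without 1 sample, the log2 fold change of Alpl in Fibroblast 2 ran from -0.89 to 0.0080, that of Gzme in Fibroblast from -0.43 to 0.12, that of Rgs2 in Fibroblast from -0.13 to 0.0019, that of Gzmd in whole samples from -0.39 to 0.28, and the interaction of Gzmd from -0.45 to 0.074. Rgs2 in Fibroblast turned to 0.066 without the cells with the most UMIs, and Gzmd in whole samples to 0.071 with batch as a covariate. The cause of these changes was not tested. The replicate numbers did not pair the samples: deviations from the genotype means in Fibroblast 2 correlated at 0.012, -0.32 and 0.090 for numbers 1, 2 and 3. Some unlike numbers correlated more strongly. The first wt/wt sample had 0.46 with the second ko/ko and -0.39 with the third, and the second wt/wt had 0.32 with the third ko/ko. What these samples share was not tested. With the replicate block 2 genes were called in Fibroblast 2, neither a member, and the lowest adjusted p of a member was 0.197 (Tnfsf11). By share of cells, 5 of the 6 members were highest in Fibroblast 2, the exception being Rgs2, against 6 of 6 by CPM.

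With 3 samples per genotype, 1 of them alone in its batch, and 23.2% to 58.9% of a sample's Gzmd UMIs in 1% of its Fibroblast 2 cells, the counts behind a level of Gzmd come from few cells. Leaving out 1 sample leaves a genotype with 2, and exact tests of shares could not reach 0.05. The split of reads between Gzmd and Gzme is limited by their shared 3′ sequence.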
